A study of Mus musculus with 12 samples.

Results

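The genes Mmrn1, Eng, Tgm2, Hacd4, Nupr1, Chad and Tcf15 were followed across sorted blood stem cells and progenitors of mice with normal, reduced or absent Erg. They are 7 of the 9984 genes that could be named on the arrays. They were picked by symbol because their values were lower in control multipotent progenitors (MPPs) than in control hematopoietic stem cells (HSCs), so that difference is given as a description and not tested. Each of the 7 symbols had 1 probe set in the table, and all 7 had values on all 12 arrays.

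Erg belongs to the ETS family of transcription factors and is active in endothelium and in blood stem cells. Cells were taken from c-Kit-enriched bone marrow of male mice bred to C57Bl/6 for at least 6 generations, and Affymetrix arrays were hybridised after amplification of 20 ng of RNA for each. The HSC samples, gated as Lineage-, Sca-1+, c-Kit+, CD150+ and CD48-, came from Erg +/+ mice (3 arrays) and from Erg +/- mice (3 arrays), in which a general Cre deleter had removed the floxed exon 11 from 1 allele. The sample titles call the Erg +/- HSCs knock-outs, whereas their genotype field and the breeding description give Erg +/-, which is followed here. The MPP samples came from Erg fl/fl mice (3 arrays) and from Erg -/- mice (3 arrays), which were Erg fl/fl with Mx1-Cre, a Cre driven by an interferon-inducible promoter. All MPP donors, with or without Cre, were given pIpC, an inducer of interferon, in 5 injections spaced 2 days apart, and the sort followed 2 weeks after the course began. No pIpC is recorded for the HSC groups, so population, pIpC and, in the altered samples, the Cre line and the Erg dose cannot be told apart. The MPP gate is recorded as CD150- in one field, while another repeats the CD150+CD48- gate of the HSCs. The labels give no ages and do not state that the 3 samples of a group came from separate animals. The p-values therefore rest on a spread between samples that may be technical.

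HSCs sustain blood formation for life, and MPPs are their early descendants, which keep many lineage choices but have lost long-term self-renewal. The genes studied here encode proteins of different kinds, and whether they are tied to the stem cell state was not tested. Eng encodes endoglin, a co-receptor for TGF-beta and BMP ligands on endothelium and HSCs. Mmrn1 encodes multimerin 1, a large secreted protein stored in platelet and endothelial granules. Tgm2 encodes transglutaminase 2, which crosslinks proteins, and Chad encodes chondroadherin, a leucine-rich-repeat protein of cartilage matrix. Hacd4 is a dehydratase of the cycle that elongates very long chain fatty acids. Nupr1 is a small stress-induced nuclear regulator, and Tcf15 is a basic helix-loop-helix transcription factor known from somite formation.

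Levels are log2 values from RMA, which subtracts background, equalises array distributions and summarises the probes of a probe set. A difference of 1 is a 2-fold change, and levels of different genes cannot be ranked against each other on this scale. Array medians lay between 5.41 and 5.54, and arrays of the same group correlated at 0.953 to 0.974 over genes. No detection calls were used here, so whether the lowest values are above background is not known. In bulk samples, fewer cells of a type and less RNA per cell cannot be told apart. Erg itself is not analysed here.

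The rows of the value table bear on 1 comparison and are described first. Between Erg -/- MPPs and Erg +/- HSCs, 18 of the 18719 probe sets had an unadjusted limma p under 1e-06 and 0 lay between 1e-06 and 0.05, the next smallest being 0.0537. The same range held 995 probe sets for Erg +/- against Erg +/+ HSCs, 673 for Erg -/- against Erg fl/fl MPPs and 3151 for the control MPPs against the control HSCs. In the model with 1 probe set per gene, which supplies the p-values below and has its own spread estimate, 12 of 9984 genes were under 1e-06, 0 lay between 1e-06 and 0.03, and 372 lay between 0.03 and 0.05, from 0.0336 up. The sources used here do not give how the rows came to be present. Counts, background shares and adjusted p-values of the Erg -/- MPP against Erg +/- HSC comparison refer only to the rows present. A gene there has a p either under 1e-06 or from 0.0336 up. The gap is thus in p, which depends on the spread as well as on the size of the difference. The difference between Erg -/- MPPs and Erg +/- HSCs equals the control difference plus the MPP genotype difference minus the HSC genotype difference. The gap therefore also limits which genotype differences a gene with a large control difference can show.

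**Figure D1:**
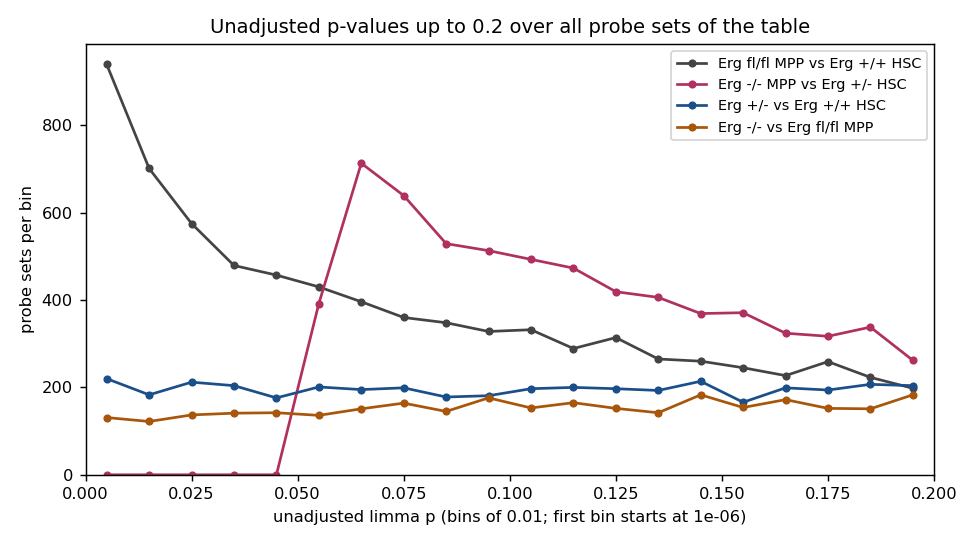
Number of probe sets (vertical axis) in bins of unadjusted limma p (horizontal axis, 0 to 0.2; the first bin starts at 1e-06) for 4 comparisons of 3 against 3 arrays. The line for Erg -/- MPPs against Erg +/- HSCs is at 0 up to a p of 0.05 and reaches 713 probe sets between 0.06 and 0.07, while the other lines have no such gap.

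The population labels could be set beside few markers. Of 14 HSC markers 1 had a value. Ifitm1, an interferon-induced membrane protein, lay between 12.06 and 12.27 in Erg +/+ HSCs and between 10.98 and 11.17 in Erg fl/fl MPPs. Of 9 MPP markers 3 had values. Flt3, the cytokine receptor that marks MPPs, averaged 6.23 in Erg +/+ and 4.91 in Erg +/- HSCs, against 8.80 in Erg fl/fl and 9.32 in Erg -/- MPPs. Irf8 averaged 5.62 in Erg +/+ and 5.97 in Erg +/- HSCs, against 6.67 in Erg fl/fl and 6.15 in Erg -/- MPPs, overlapping between Erg +/- HSCs and Erg -/- MPPs. For Il12a, in the same order of groups, the averages were 6.92, 6.71, 7.44 and 6.32, overlapping between the populations in the control and in the altered arrays. Ifitm1 and Flt3 thus went with the population labels in all 4 groups, Irf8 in the control groups, and Il12a in neither. Ifitm1 and Flt3 are among the 12 genes with an unadjusted limma p under 1e-06 between Erg -/- MPPs and Erg +/- HSCs. Given the gap in the rows, their match to the labels is a description and no independent check. Markers that define long-term HSCs, such as Procr, Fgd5, Hlf and Mecom, are not analysed here.

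Among the control arrays all 7 genes had their 3 MPP arrays below their 3 HSC arrays, an arrangement that 8.54% of all 9984 genes showed and that the choice of the genes fixes. The median difference of the 7 genes, MPP minus HSC, was -3.19 on the log2 scale, where the median of all genes was 0.122. The sizes differed widely, from 19.8-fold for Mmrn1 to 1.67-fold for Tcf15. In the altered arrays, Erg -/- MPPs against Erg +/- HSCs, the median of the 7 genes was -3.35 and that of all genes 0.101. There, limma called 5 of the 7 genes lower at an adjusted p under 0.05, namely Mmrn1, Eng, Tgm2, Hacd4 and Nupr1. The background was 0.11% of all genes called lower in that comparison, 11 of 9984. Because of the gap in the rows, nothing is read from the members' count against it. The same 5 genes, and not Chad or Tcf15, had their 3 MPP arrays below their 3 HSC arrays, an arrangement seen in 5.47% of all genes. These 6 arrays share none with the control comparison, but the gap in the rows lies in their own contrast. Nothing is therefore read from the arrangement's count against its share either.

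**Figure D2:**
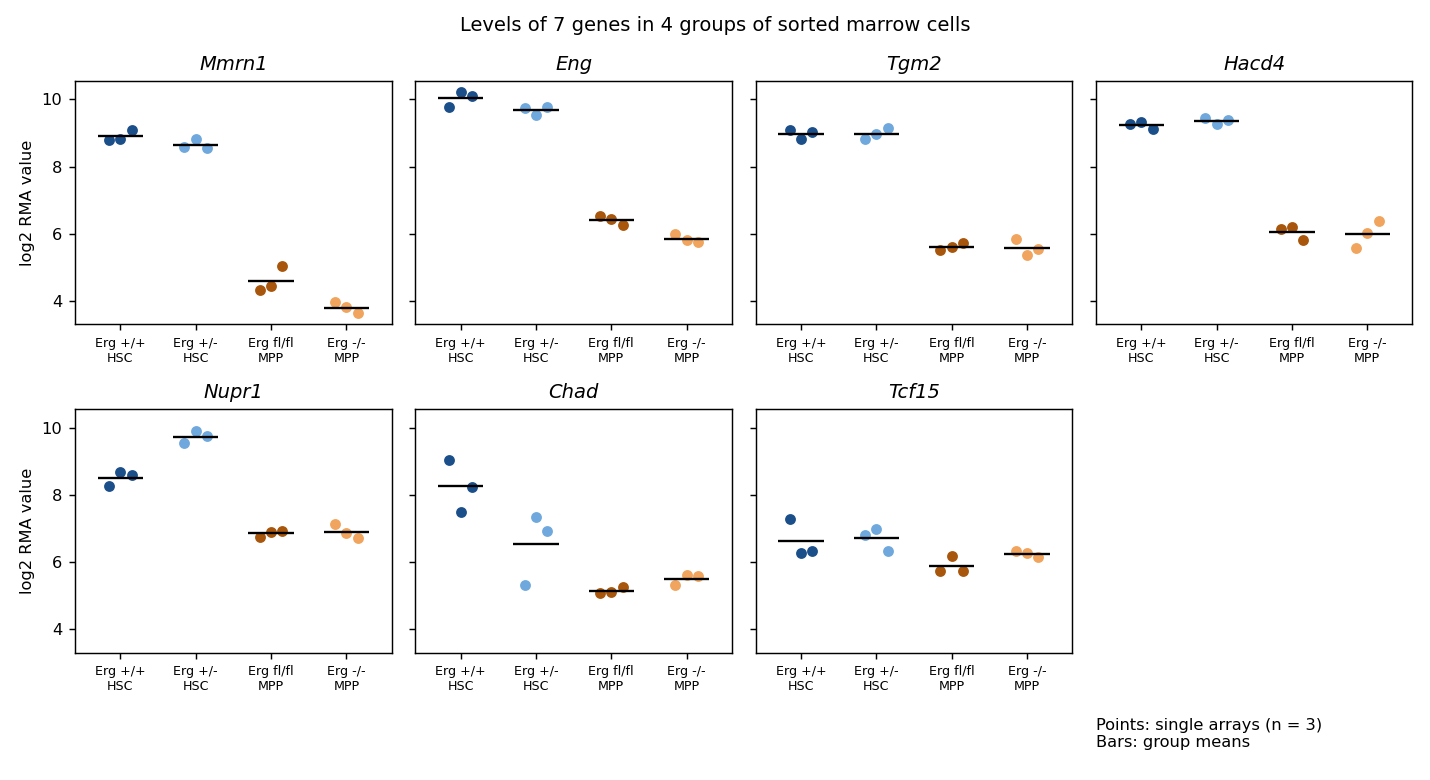
Log2 RMA values (vertical axis) of 7 genes in single arrays (points, 3 per group) of Erg +/+ HSCs, Erg +/- HSCs, Erg fl/fl MPPs and Erg -/- MPPs (horizontal axis), with group means as bars. Mmrn1, Eng, Tgm2, Hacd4 and Nupr1 stand lower in every MPP array than in any HSC array. Chad and Tcf15 have HSC and MPP arrays that overlap, but not between Erg +/+ HSCs and Erg fl/fl MPPs.

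Promoter sequences were taken from RefSeq (GRCm38.p6), as the 250 bases before the gene's start, for 5 of the 7 genes. They are printed on the gene's own strand for the 4 genes whose arrays of different Erg genotype stood apart in HSCs or MPPs, as described below, since Erg binds ETS sequences. Capitals mark matches on either strand to 2 forms of the ETS core, of which the first is CCGGAA and the other is CAGGAA. A match on the opposite strand appears in these lines as its reverse complement. The windows are chr6:60944067-60944316 (plus strand) for Mmrn1, chr2:32646345-32646594 (plus) for Eng, chr7:126625471-126625720 (minus) for Nupr1 and chr11:94564797-94565046 (plus) for Chad.
Mmrn1: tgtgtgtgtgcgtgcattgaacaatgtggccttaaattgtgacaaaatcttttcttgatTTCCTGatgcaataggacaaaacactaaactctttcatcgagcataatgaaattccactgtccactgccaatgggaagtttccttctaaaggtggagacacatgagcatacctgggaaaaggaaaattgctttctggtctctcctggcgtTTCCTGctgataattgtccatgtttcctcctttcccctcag
Eng: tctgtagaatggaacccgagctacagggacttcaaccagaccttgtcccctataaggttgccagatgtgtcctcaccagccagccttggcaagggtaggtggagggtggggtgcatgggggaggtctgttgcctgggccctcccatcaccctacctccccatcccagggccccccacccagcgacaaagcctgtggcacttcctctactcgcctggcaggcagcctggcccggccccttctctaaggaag
Nupr1: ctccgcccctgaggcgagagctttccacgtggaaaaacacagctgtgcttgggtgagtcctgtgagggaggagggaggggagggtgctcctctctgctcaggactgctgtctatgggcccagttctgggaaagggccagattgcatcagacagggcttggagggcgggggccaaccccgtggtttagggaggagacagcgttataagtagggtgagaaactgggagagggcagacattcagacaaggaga
Chad: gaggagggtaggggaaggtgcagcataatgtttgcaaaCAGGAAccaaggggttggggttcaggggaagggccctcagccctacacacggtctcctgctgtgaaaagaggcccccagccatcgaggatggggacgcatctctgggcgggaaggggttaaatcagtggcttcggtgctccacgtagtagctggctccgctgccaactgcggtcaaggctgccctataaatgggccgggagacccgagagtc

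The Mmrn1 window held CAGGAA at 2 places, both on the opposite strand, at -191 to -186 and at -41 to -36 from the start. Chad held 1 at -212 to -207, and Hacd4, whose window is not printed, held 1 at -130 to -125. The windows of Eng and Nupr1 held neither form, which says only that these letters are absent from these windows. CAGGAA was thus present in 3 of 5 windows and CCGGAA in 0 of 5, while 8446 (25.7%) and 3952 of the 32851 promoters of the same length held them. The GATA form AGATAA and the RUNX form TGTGGT were in 0 of the 5 windows, against 3281 (9.99%) and 4614 of all promoters. The E-box form CANNTG was in 4 of 5, against 66.2% of all, and its form CAGCTG, which is a subset of those matches, was in 1 of 5, that of Nupr1, against 4271 of all promoters. The windows also differed in base composition. GC content was 42.4% for Mmrn1 and from 57.2% to 62.4% for the other 4, where the median of all promoters was 52.4%. A match is a stretch of letters and was not tested for binding.

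Eng, the TGF-beta and BMP co-receptor, read 9.77, 10.22 and 10.10 in the Erg +/+ HSC arrays and 9.74, 9.55 and 9.78 in the Erg +/- HSC arrays. It read 6.54, 6.45 and 6.27 in Erg fl/fl MPPs and 5.99, 5.81 and 5.76 in Erg -/- MPPs. From high to low the groups ran Erg +/+ HSC, Erg +/- HSC, Erg fl/fl MPP and Erg -/- MPP, and only the 2 HSC groups overlapped. The control populations differed by -3.61, or 12.2-fold. In the altered arrays MPPs were lower by 14.3-fold (log2 difference -3.84, SE 0.166, adjusted p = 7.61e-08). Every Erg -/- MPP array was below every Erg fl/fl MPP array, with a log2 difference of -0.57 (SE 0.166), which did not pass the test over all genes (limma adjusted p = 0.681). In HSCs the genotype difference was -0.34 (SE 0.166, adjusted p = 0.832).

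Mmrn1, the granule protein, had the largest population difference of the 7 genes among both the control and the altered arrays. It read 8.81, 8.82 and 9.08 in Erg +/+ HSCs and 8.58, 8.82 and 8.55 in Erg +/- HSCs, with overlap between the genotypes. In Erg fl/fl MPPs the arrays read 4.32, 4.44 and 5.05, and in Erg -/- MPPs 3.97, 3.82 and 3.64. The order of groups was the same as for Eng, and the MPP groups did not overlap. The control difference was -4.30, or 19.8-fold. In the altered arrays it was -4.84, or 28.6-fold (SE 0.203, limma adjusted p = 7.61e-08). Within MPPs the Erg -/- arrays were lower by a log2 difference of -0.79 (SE 0.203, adjusted p = 0.497), a value that ranged from -0.93 to -0.56 when 1 array was left out. Within HSCs the difference was -0.25 (SE 0.203, adjusted p = 0.917).

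Tgm2, the crosslinking enzyme, differed between populations and had close means in the genotypes of each. It read 9.09, 8.84 and 9.02 in Erg +/+ HSCs and 8.83, 8.98 and 9.15 in Erg +/- HSCs. The MPP arrays read 5.51, 5.60 and 5.72 with Erg fl/fl and 5.85, 5.39 and 5.54 with Erg -/-. Genotypes overlapped within each population, and HSC and MPP arrays did not. The control difference was -3.37, or 10.4-fold, and the altered arrays gave -3.39, or 10.5-fold (SE 0.168, limma adjusted p = 2.66e-07). The genotype differences were 0 in HSCs and -0.02 in MPPs, each with an SE of 0.168.

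Hacd4, of the fatty acid elongation cycle, had the same shape. Its HSC arrays read 9.26, 9.34 and 9.13 with Erg +/+ and 9.44, 9.26 and 9.38 with Erg +/-. Its MPP arrays read 6.14, 6.22 and 5.81 with Erg fl/fl and 5.58, 6.03 and 6.40 with Erg -/-, again overlapping within each population. MPPs were lower by 9.10-fold in the control arrays (-3.19) and by 10.2-fold in the altered arrays (-3.35, SE 0.204, limma adjusted p = 1.09e-06). The genotype difference was 0.12 in HSCs and -0.05 in MPPs, each with an SE of 0.204.

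Nupr1, the stress-induced regulator, was the gene of the 7 that stood higher in Erg +/- than in Erg +/+ HSCs in all 3 arrays. It read 8.25, 8.69 and 8.58 in Erg +/+ HSCs and 9.55, 9.89 and 9.74 in Erg +/- HSCs. In MPPs it read 6.75, 6.89 and 6.92 with Erg fl/fl and 7.14, 6.86 and 6.71 with Erg -/-. From high to low the groups ran Erg +/- HSC, Erg +/+ HSC, and then the MPP groups, which overlapped. The HSC genotype difference was 1.22, or 2.32-fold (SE 0.177), and its limma adjusted p of 0.0507 was just outside the threshold. It was called when dim genes were left out, with an adjusted p of 0.0470 above the 25th percentile of mean value and 0.0419 above the 50th, and also without Erg +/+ HSC replicate 2 (0.0495). Over all alternatives the adjusted p ran from 0.0419 to 0.386 and the difference from 1.09 to 1.31. Given the control difference of Nupr1, the gap in the rows limits which genotype differences it could show. The HSC difference and its p-values are therefore given as a description. In MPPs the genotype difference was 0.05 (SE 0.177, adjusted p = 0.998). The population difference was -1.66 in the control arrays, or 3.15-fold, and -2.82 in the altered arrays, or 7.04-fold (SE 0.177, adjusted p = 1.25e-06).

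Chad, the cartilage matrix protein, varied more between arrays of the same HSC group than the other genes did. It read 9.04, 7.48 and 8.23 in Erg +/+ HSCs and 5.31, 7.35 and 6.92 in Erg +/- HSCs, so that the genotypes stood apart but nearly touched. The group SDs were 0.783 and 1.08, against 0.101 in Erg fl/fl MPPs and 0.172 in Erg -/- MPPs. The MPP arrays read 5.08, 5.10 and 5.27 with Erg fl/fl and 5.31, 5.63 and 5.58 with Erg -/-. From high to low the groups ran Erg +/+ HSC, Erg +/- HSC, Erg -/- MPP and Erg fl/fl MPP, and the middle groups overlapped. Erg +/- HSC replicate 1, at 5.31, was within the range of the Erg -/- MPP arrays. The HSC genotype difference was -1.72 (SE 0.461) and did not pass the test (limma adjusted p = 0.522). It ran from -2.13 to -1.11 when 1 array was left out, the latter without Erg +/- HSC replicate 1. Given Chad's control difference, the gap in the rows limits which genotype differences it could show. Its HSC difference and the separation of the genotypes are therefore given as a description. The population difference was -3.10, or 8.58-fold, in the control arrays and -1.02 in the altered arrays (SE 0.461, adjusted p = 0.446). Leaving out 1 array moved the altered difference to -1.63 (without Erg +/- HSC replicate 1) or -0.61 (without replicate 2). Chad's unadjusted p there was 0.046, among the 372 genes at the upper side of the gap. With no gene between 1e-06 and 0.03, a missed adjusted threshold is not read as a sign that Chad did not differ.

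The mean of stromal and cartilage markers was higher in Erg +/+ than in Erg +/- HSCs, as Chad was, while single markers differed in direction. Of 18 such markers 8 had values (Comp, Cxcl12, Pdgfrb, Sparc, Sox9, Dcn, Ibsp and Matn3). Their mean level was 5.83, 5.35 and 5.43 in Erg +/+ HSC replicates 1, 2 and 3, and 4.96, 4.92 and 5.01 in Erg +/- HSCs. In MPPs it lay between 5.21 and 5.50 with Erg fl/fl and between 5.24 and 5.50 with Erg -/-. Between the HSC genotypes 4 of the 8 had a negative and 4 a positive difference, Erg +/- minus Erg +/+. Cxcl12 (-1.75), Pdgfrb (-0.67), Ibsp (-0.46) and Sparc were negative, and the cartilage genes Comp (0.01), Matn3 (0.07) and Sox9 (0.23) and the matrix proteoglycan Dcn (0.09) were not. Erg +/+ HSC replicate 1, highest for Chad, was also highest for Cxcl12, a stromal chemokine, which read 9.09, 6.08 and 7.03 in that group and from 5.46 to 5.92 in Erg +/- HSCs. The same replicate was lowest of the 6 HSC arrays for Comp (5.14) and for Sox9 (5.14). Within Erg +/+ HSCs the list's mean ran in Chad's order, with replicate 1 highest and replicate 2 lowest. Within Erg +/- HSCs the list's mean did not follow Chad, being 4.92 in replicate 2, where Chad was highest. Sparc, a secreted matrix glycoprotein, was the 1 marker of the list called lower in Erg +/- HSCs (-2.08, SE 0.285, limma adjusted p = 0.0401), a call lost in 8 of 16 alternatives, including without Erg +/+ HSC replicate 1 (adjusted p = 0.112) or replicate 3 (0.102) and without Erg +/- HSC replicate 1 (0.0776) or replicate 3 (0.202). The part of such cells in the Chad values was not tested.

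Tcf15, the basic helix-loop-helix factor, had the smallest population difference of the 7 genes in both sets of arrays. It read 7.28, 6.26 and 6.32 in Erg +/+ HSCs and 6.81, 6.99 and 6.33 in Erg +/- HSCs, which overlapped. The MPP arrays read 5.74, 6.17 and 5.73 with Erg fl/fl and 6.34, 6.26 and 6.16 with Erg -/-, which also overlapped. From high to low the groups ran Erg +/- HSC, Erg +/+ HSC, Erg -/- MPP and Erg fl/fl MPP, and each overlapped its neighbour. The control difference was -0.74, or 1.67-fold, and was -0.41 without Erg +/+ HSC replicate 1. In the altered arrays it was -0.45 (SE 0.268, limma adjusted p = 0.446), with the same limit on its reading as for Chad. The genotype differences were 0.09 in HSCs and 0.37 in MPPs, each with an SE of 0.268.

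**Figure D3:**
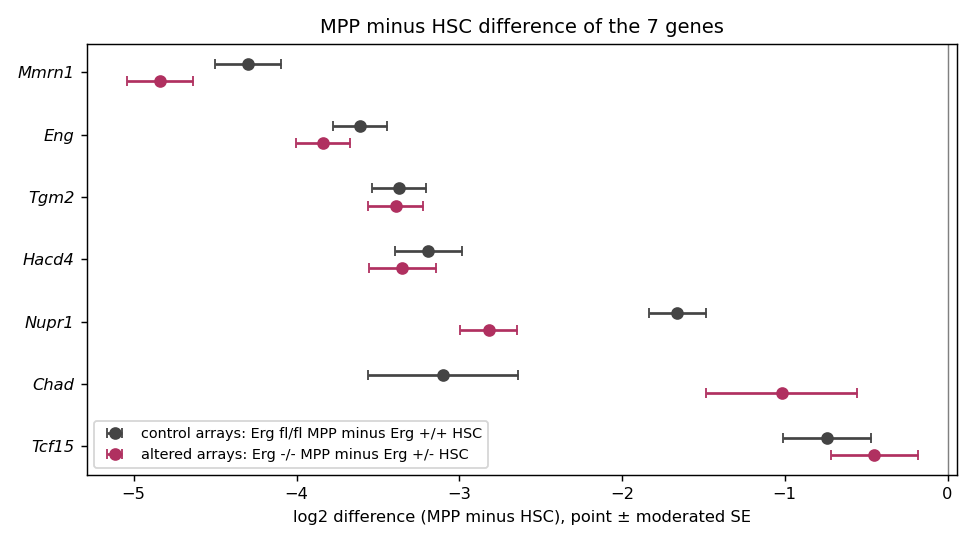
Log2 difference, MPP minus HSC (horizontal axis), of the 7 genes (vertical axis) among control arrays (Erg fl/fl MPPs minus Erg +/+ HSCs) and altered arrays (Erg -/- MPPs minus Erg +/- HSCs), as points with moderated standard errors, 3 arrays per group. Tgm2 has nearly equal points (-3.37 and -3.39), Nupr1 lies further from 0 among the altered arrays (-2.82 against -1.66), and Chad lies closer to 0 there (-1.02 against -3.10).

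Set side by side, the genotype comparisons share their control arrays with the comparison that chose the genes. The gap in the rows also limits which genotype differences these genes could show. No test of the difference between the populations' genotype effects was made. In HSCs, 0 of the 7 genes passed the limma test and 2 had an unadjusted p under 0.05 (Nupr1 and Chad). Over all genes 2 were called, or 0.02%, and 273 higher and 358 lower genes, 6.32% in all, had an unadjusted p under 0.05. The arrays of the genotypes stood apart for 2 of the 7 genes, Nupr1 higher and Chad lower in Erg +/- HSCs, in a background of 10.4% of all genes. The median HSC genotype difference of the 7 genes was 0 and that of all genes 0.0241. In MPPs, 0 of the 7 genes passed and 2 had an unadjusted p under 0.05 (Mmrn1 and Eng). Over all genes 8 were called, or 0.0801%, and all 8 were lower in Erg -/- MPPs. A further count, at an unadjusted p under 0.05, gave 357 lower and 121 higher genes, 4.79% of all. The arrays stood apart for 3 of the 7 genes, Mmrn1 and Eng lower and Chad higher in Erg -/- MPPs, in a background of 10.5%. The median MPP genotype difference was -0.02 for the 7 genes and -0.00395 for all genes.

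**Figure D4:**
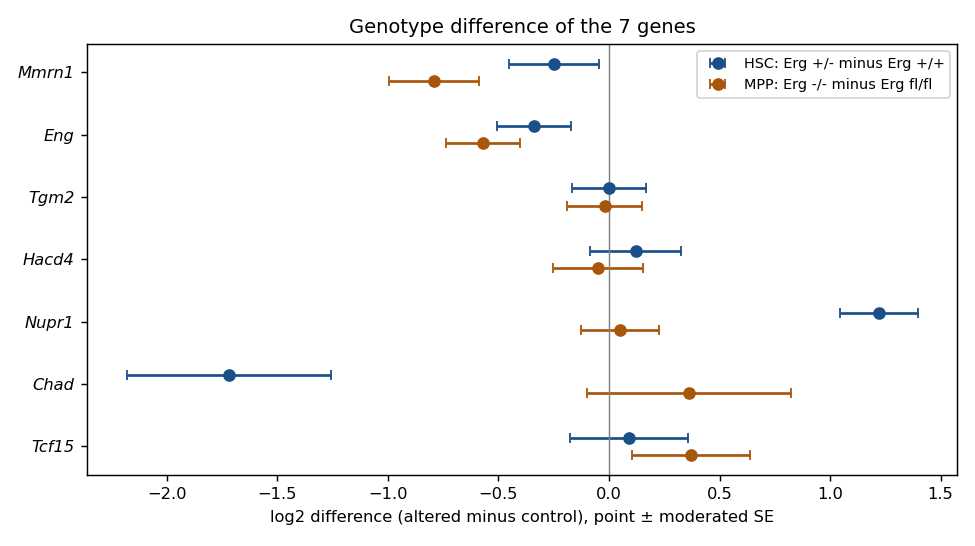
Log2 difference between Erg genotypes (horizontal axis) of the 7 genes (vertical axis), as points with moderated standard errors, for HSCs (Erg +/- minus Erg +/+) and MPPs (Erg -/- minus Erg fl/fl), 3 arrays per group. In HSCs Nupr1 stands at 1.22 and Chad at -1.72, in MPPs Mmrn1 stands at -0.79 and Eng at -0.57, and none of these passed the test over all genes.

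Genes that work with the 7 were counted from lists that leave the 7 genes out. The gap bears on which listed genes and markers have values, so list counts, medians and means refer only to the rows present. Over all genes the control comparison called 128, or 1.28%. The share of all genes with an unadjusted p under 0.05, against which the lists' unadjusted counts are to be read, was 22.3% in the control comparison (790 lower and 1436 higher), 3.85% in the altered comparison, 6.32% in HSCs and 4.79% in MPPs. Of 40 genes of the endoglin, TGF-beta and BMP pathway 22 had values, and 0 were called in any of the 4 comparisons, with 7 at an unadjusted p under 0.05 in the control comparison. The smallest p there belonged to Smad2, a signal transducer of TGF-beta receptors, higher in control MPPs by 0.99 (SE 0.238, limma adjusted p = 0.0630), and to Ltbp1, which binds latent TGF-beta, at 0.61 (SE 0.186, adjusted p = 0.108). In the altered comparison 1 of the 22 had an unadjusted p under 0.05, in HSCs 3 and in MPPs 2. The list's median differences lay between -0.14 and 0.02, and because of the gap they are not set against Eng.

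Of 32 megakaryocyte and platelet genes, the setting in which Mmrn1 is best known, 12 had values and 0 were called in any comparison, with 2 at an unadjusted p under 0.05 in the control comparison, 1 in HSCs and 0 in the other comparisons. Those 2 were Tubb1, a platelet tubulin, at 0.54 (adjusted p = 0.150), and F5, coagulation factor V, at -0.39 (adjusted p = 0.207). Of 12 megakaryocyte markers 6 had values. Their mean lay between 5.57 and 5.61 in Erg +/+ HSCs and between 5.54 and 5.65 in Erg fl/fl MPPs. Because of the gap in the rows nothing is read from this overlap, and the part of such cells in the Mmrn1 values was not tested. For endothelium, which also makes Eng, Mmrn1 and Tgm2, 4 of 18 markers had values (Pecam1, Kdr, Plvap and Egfl7), and 0 were called in any comparison, with 2 at an unadjusted p under 0.05 in the control comparison. Their mean was 6.12 to 6.41 in Erg +/+ HSCs, 5.85 to 6.21 in Erg +/- HSCs, 5.93 to 6.02 in Erg fl/fl MPPs and 5.68 to 6.09 in Erg -/- MPPs. It was thus higher in Erg +/+ HSCs than in Erg fl/fl MPPs in all arrays, and its part in the members' values was not tested. For macrophages, which make Tgm2, 6 of 17 markers had values and their mean lay between 5.60 and 5.89 in Erg +/+ HSCs and between 5.64 and 5.96 in Erg fl/fl MPPs.

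Of 37 extracellular matrix and crosslinking genes 19 had values, and Sparc was the 1 called in the control comparison, lower in MPPs by a log2 difference of -1.40 (SE 0.285, adjusted p = 0.0351), a call lost in 7 of 16 alternatives, among them without any 1 Erg +/+ HSC array (adjusted p = 0.0902, 0.0521 and 0.0599 without replicates 1, 2 and 3) and without Erg fl/fl MPP replicate 2 (0.121) or 3 (0.113). In the altered comparison Sparc stood at 0.62 (adjusted p = 0.446), the opposite sign. Of 23 genes of very long chain fatty acid elongation 7 had values and 0 were called by limma in any comparison, with 2 at an unadjusted p under 0.05 in the control comparison. Hacd2, a dehydratase of the same step as Hacd4, stood at 1.24 there (SE 0.343, adjusted p = 0.0940), opposite in sign to Hacd4. Of 25 stress response genes 13 had values and 0 were called in any comparison, with 5 at an unadjusted p under 0.05 in the control comparison. Hmox1, heme oxygenase, stood at -1.09 in the control comparison (adjusted p = 0.101) and at 0.63 in Erg +/- HSCs (adjusted p = 0.834). Of 29 basic helix-loop-helix factors and their partners 17 had values and 0 were called in any comparison, with 3 at an unadjusted p under 0.05 in the control comparison, of which Id2, an inhibitor of such factors, stood at -0.70 (adjusted p = 0.108).

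Of 49 genes listed as associated with stem cells 4 had values. Ifitm1 was called lower in control MPPs (-1.08, SE 0.155, limma adjusted p = 0.00558), in Erg -/- against Erg fl/fl MPPs (-1.66, adjusted p = 0.000442) and in the altered comparison (-2.84, adjusted p = 4.57e-07). Of 28 progenitor and early lymphoid genes 9 had values, and 3 were called higher in control MPPs. They were Flt3 at 2.57 (adjusted p = 0.000242), Ebf1, a B-lineage transcription factor, at 1.49 (adjusted p = 0.0114), and Irf8, a myeloid and lymphoid transcription factor, at 1.05 (adjusted p = 0.0364, lost in 8 of 16 alternatives, among them without either Erg +/+ HSC replicate 1 or 2, at 0.0846 and 0.0588, or any 1 Erg fl/fl MPP array, at 0.0676, 0.0770 and 0.113). In the altered comparison Flt3 was the 1 gene called higher among the 9984 present (4.42, adjusted p = 5.42e-07). Because of the gap in the rows, that count and the altered call of Ifitm1 are given as a description.

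Across the 12 arrays the 7 genes correlated with each other at a Pearson r of 0.556 to 0.992 over 21 pairs, all of which carries the split between 6 HSC and 6 MPP arrays. Within the 6 HSC arrays r ran from -0.94 to 0.681 and 8 of 21 pairs were positive. Within the 6 MPP arrays it ran from -0.956 to 0.772 and 10 of 21 were positive. Mmrn1 and Eng were positive in both (0.472 in HSCs and 0.715 in MPPs), and each range holds both genotypes. Over the 12 arrays the genes most like the mean of the 7 standardised genes were Gltp, a glycolipid transfer protein (r = 0.966), Ces2g, a carboxylesterase (0.938), Actb, cytoskeletal actin (0.919), Fxyd5, a regulator of the sodium pump (0.891), and Cracd (0.868). Gltp, Ces2g, Fxyd5 and Cracd are also among the 6 genes outside the 7 that were called lower in the altered comparison. Because of the gap in the rows, this overlap and the nearest genes given below are not read further. Gltp averaged 9.42 and 9.68 in Erg +/+ and Erg +/- HSCs and 7.47 and 7.07 in Erg fl/fl and Erg -/- MPPs. In the same order of groups Actb averaged 12.32, 12.3, 11.93 and 12.03, a much narrower span despite its high r.

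Gene by gene, 4 of the 7 shared their nearest gene. Gltp was nearest to Mmrn1 (r = 0.98), Eng (0.983), Tgm2 (0.983) and Hacd4 (0.979), followed by Fxyd5 for Mmrn1 (0.946) and Eng (0.949) and by Ces2g for Tgm2 (0.943) and Hacd4 (0.942). Nupr1 was nearest to Cracd (0.984), which like Nupr1 averaged higher in Erg +/- than in Erg +/+ HSCs (7.77 and 6.14), and then to Ces2g (0.967). Chad was nearest to Zbtb24 (0.937) and Man1c1 (0.931), the latter averaging 7.06 in Erg +/+ and 6.36 in Erg +/- HSCs against 5.39 and 5.66 in the MPP groups. Tcf15 was nearest to Plekhm2 (0.903) and Mtmr3 (0.887), whose group means spanned less than 1 log2 unit.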

How the data were processed

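RNA was measured on 12 arrays. The deposited values are log2 values, 0.94 to 13.4, made by the authors with RMA and affy, per the submitters' processing notes, which give no versions. The sources used here give no genome build. After RMA a difference is relative to most other probe sets, and dim genes show compressed folds. Of 18719 probe sets, the annotation gave 10657 1 symbol, 523 several and did not list 7539. The probe set with the highest mean stood for each of 9984 genes. One limma 3.58.1 model (R 4.3.3) over all 12 arrays, with a mean per group (8 residual and 4.35 prior degrees of freedom), gave moderated SEs and two-sided p-values, Benjamini-Hochberg adjusted over all genes, threshold 0.05. It was tested on simulated data, drawn as independent normal values with no gap imposed on the rows, so that test does not bear on the gap. The number of arrays limits the precision. The genes and lists were chosen with earlier results of these data known. All 7 genes were named. From lists, up to 3 called genes or up to 2 with the smallest p were named, and by likeness the 5 genes nearest to the mean and 2 nearest to each gene. The markers given singly beside Chad were chosen after their values were seen. Alternatives were a replicate block, filters on dim genes, averaged probe sets, other normalisations, variance models and array weights, fewer arrays and all probe sets.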

Additional observations from a re-analysis of the deposited data

How the results depend on the processing

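The 5 calls and the 12 genes called in the altered comparison kept their counts or stayed within 1.5 times under all 16 alternatives, and no difference reversed past a threshold. Because of the gap in the rows of that comparison, an alternative could hardly move a gene across the threshold. Nothing is therefore read from the stability of these counts. In HSCs the 2 genes called became 1 with the replicate block, 7 above the 25th percentile of mean value, 0 with averaged probe sets, 5 with an intensity trend and robust moderation, 0 with only the arrays compared, and 1 to 8 when 1 array was left out. The 8 were reached without Erg +/+ HSC replicate 2, and 6 without Erg +/- HSC replicate 2. Of the 7 genes, 0 were called in HSCs, and 1 (Nupr1) with either filter on dim genes. Leaving out 1 array gave 0 to 1, the 1 being without Erg +/+ HSC replicate 2. In MPPs the 8 genes called became 5 to 7 when 1 array was left out, with 5 without Erg fl/fl replicate 2 or any 1 Erg -/- array. In the control comparison the 128 became 61 with only the arrays compared, 60 with all probe sets, and 47 to 150 when 1 array was left out, with 47 and 48 without Erg fl/fl MPP replicates 2 and 3. The cause was not tested. Between same-numbered samples of the groups compared, deviations from the group means correlated at -0.0852 to 0.104. Whether these samples share more than a number cannot be told from this. With the replicate block Sparc lost its call in HSCs (adjusted p = 0.0863) and the calls of the 7 genes were unchanged. With 3 arrays per group and no detection calls, small differences of dim genes could not be judged.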
